A study of Caenorhabditis elegans with 12 samples.

Results

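A set of 10 core genes of the EGF-Ras-MAPK signalling cascade was followed in polysomal and nonpolysomal RNA of the nematode Caenorhabditis elegans: lin-3, let-23, sem-5, let-60, gap-3, lin-45, ksr-2, mek-2, mpk-1 and lin-1. They were chosen by name, and their probe sets were those that the platform annotation gives to that gene alone. Of the 10 genes, 7 were measured, by 12 of the 13333 probe sets tested, among 10334 named genes in all. lin-3 and sem-5 had 1 probe set each and the other 5 measured genes had 2, of which the brightest by mean log2 signal stands for the gene unless the dimmer is named. No probe set of let-23, gap-3 or mek-2 alone was among those given, so these 3 genes are not analysed here.

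In this cascade the EGF-like ligand LIN-3 binds the receptor LET-23, the adaptor SEM-5 couples the receptor to the small GTPase LET-60 Ras, and Ras drives the kinases LIN-45 Raf, MEK-2 MEK and MPK-1 ERK with the scaffold KSR-2. GAP-3 is a GTPase-activating protein that switches Ras off, and LIN-1 is an ETS transcription factor that MPK-1 phosphorylates. The cascade is best known for inducing the vulva in larval epidermal precursors. In the adult germline, MPK-1 carries germ cells through pachytene and is active again in maturing oocytes.

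The samples were whole worms of mixed stages, wild type N2 or the mutant ife-1(bn127), so every value averages over larvae, embryos and adults, germline and soma. Both strains were fed OP50 bacteria supplemented with egg yolk and had a final passage of 3 days at 20 °C. IFE-1 is a germline isoform of the cap-binding translation initiation factor eIF4E. Lysates were resolved on gradients of 10 to 45% sucrose, and RNA below 80S (nonpolysomal, NP) and above 80S (polysomal, P) was measured on an Affymetrix array each, in 3 separately harvested cultures per genotype, 12 arrays in 4 groups of 3. The cultures form 3 growth sets, each with a wild-type and an ife-1 culture, and are numbered by set.

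Median deposited signals were 367.3 to 428.6 per array, and precision is limited throughout by the number of arrays. The ife-1 probe set gave signals of 3567 to 5997 on wild-type arrays, with a present call on 6 of 6, and of 62.3 to 177.7 on mutant arrays, with a present call on 0 of 6. All measured markers of germline, sperm, yolk, vulva and epidermis, muscle, neurons and intestine had present calls. The authors had kept probe sets by detection calls, so these calls are no separate evidence of a tissue. The listed markers spe-38, peel-1, vit-3, egl-17, zmp-1, lin-39 and unc-119 were not measured. Wild-type culture 2 stood apart: across probe sets its log2 P/NP correlated at 0.773 with that of wild-type culture 1 and at 0.755 with that of culture 3, while cultures 1 and 3 correlated at 0.858. Its summed signal of 8 sperm markers was 18141, against 75695 and 72202 in the wild-type cultures of sets 1 and 3 and 21049 to 26287 in the ife-1 cultures. Results that change without this culture are given both ways.

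The first question was how the mRNAs of the cascade were distributed between the fractions in wild-type worms. The share of an mRNA in polysomes, P/(P+NP) of normalized signals, ran from 61.1% ± 6.87 (SD, n = 3) for the scaffold gene ksr-2 to 41.7% ± 6.16 for the adaptor gene sem-5. The median of all probe sets was 49.3%, with quartiles at 40.2% and 59.4%. All arrays were normalized to the same distribution of signals, so a share is relative and is not a fraction of mRNA molecules. By the brightest probe sets, 1 of the 7 genes, ksr-2, passed the test of polysomal against nonpolysomal signal in wild type (limma on log2 P/NP, Benjamini-Hochberg adjustment over all probe sets, threshold 0.05). Over all 12 probe sets, 4 were called higher in polysomes and 0 lower: both of ksr-2 and the dimmer ones of let-60 (1.39 ± 0.26, adjusted p = 0.00227) and lin-1 (0.46 ± 0.17, adjusted p = 0.0428). That let-60 probe set had a present call on 1 of 3 wild-type nonpolysomal arrays, and the brightest let-60 probe set gave -0.03 ± 0.15. Only in the polysomal groups was the dimmer let-60 probe set called present on all 3 arrays. The authors had kept probe sets by detection calls, so its call here is no separate support for a polysomal excess. At that threshold 55.8% of all probe sets differed between the fractions, 26.5% higher and 29.3% lower in polysomes.

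The ksr-2 shares were 66.3%, 63.8% and 53.3% in the wild-type cultures of sets 1, 2 and 3. The mean was above that of 78.4% of probe sets, and all 3 cultures lay above 50%. Polysomal signal was 1.58-fold nonpolysomal signal, a log2 difference of 0.66 ± 0.20 (SE, adjusted p = 0.0197). The dimmer ksr-2 probe set gave 0.54 ± 0.20 (adjusted p = 0.0458). The call was lost without wild-type culture 2 (0.58, adjusted p = 0.0786) or wild-type culture 1 (0.51, adjusted p = 0.119).

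Next in order came mpk-1, the ERK gene, with shares of 48.7%, 60.0% and 63.3%, and lin-1, the ETS factor gene, with 50.2%, 59.9% and 59.7%. For lin-45, the Raf gene, log2 P/NP was -0.23, 0.62 and 0.12, a mean share of 52.9% ± 7.30. By their brightest probe sets, each of these 3 genes had its lowest value in set 1 and none passed the test in wild type, with adjusted p of 0.0759, 0.11 and 0.453. The dimmer lin-1 probe set, which passed, had shares of 57.7%, 53.7% and 62.2%, lowest in set 2. Without wild-type culture 1, mpk-1 passed (log2 difference 0.69, adjusted p = 0.0191). By its brightest probe set let-60, the Ras gene, sat at 49.5%, 49.4% and 49.5%, the narrowest spread of the 7 genes (0.10 SD). The EGF gene lin-3 gave 55.6%, 41.1% and 42.7%. For sem-5 the shares were 45.2%, 45.3% and 34.6%, all below 50%, a log2 difference of -0.49 ± 0.18 that did not pass (adjusted p = 0.0504). With the growth set as a replicate block, the same sem-5 difference passed (adjusted p = 0.0358). Neighbours in the order were 0.7 to 4.7 percentage points apart, and each gap was smaller than the larger SD of the genes it separates.

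**Figure D1:**
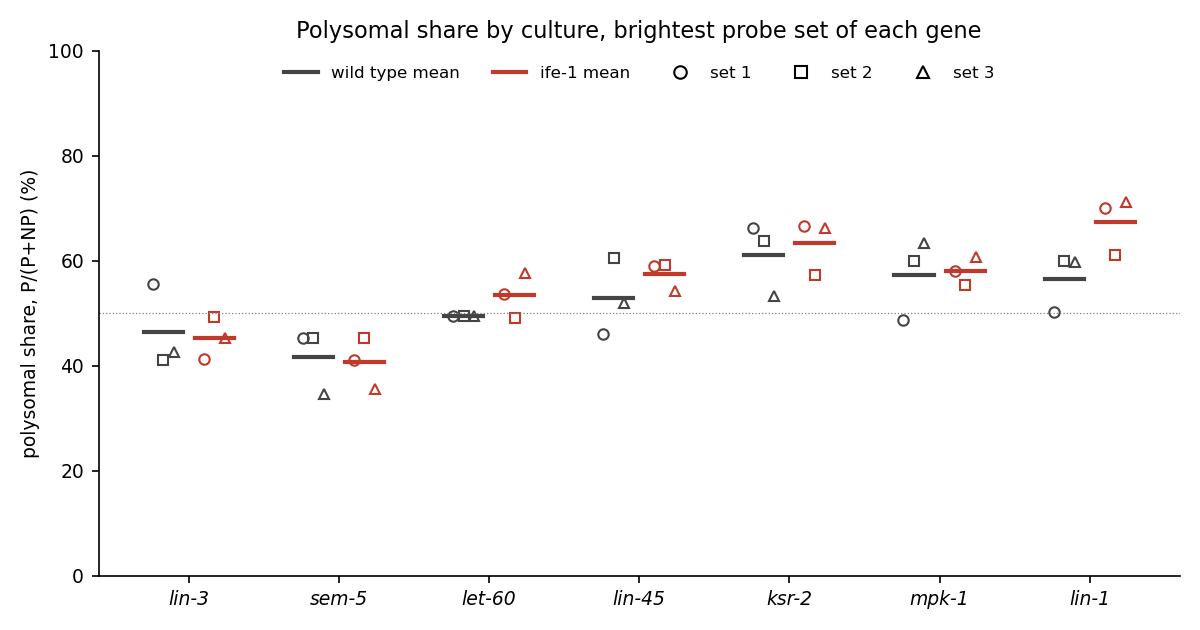
Polysomal share, P/(P+NP) in percent, of the brightest probe set of each of the 7 genes in every culture. Grey symbols are wild-type and red symbols ife-1 cultures, the symbol shape gives the growth set, bars are means of 3 cultures and the dotted line marks 50%. The genotypes overlap for all genes except lin-1, where the ife-1 cultures run from 61.0% to 71.2% and the wild-type cultures from 50.2% to 59.9%.

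In ife-1 worms the order was close to that of wild type, with lin-1 first at 67.4% ± 5.64 (SD, n = 3), ksr-2 at 63.4% ± 5.38, mpk-1 at 58.1% ± 2.67 and lin-45 at 57.4% ± 2.74. let-60 stood at 53.4% ± 4.32, lin-3 at 45.2% ± 3.97 and sem-5 again last at 40.6% ± 4.87. Neighbours were 0.7 to 8.2 percentage points apart, and only the 8.2 points between let-60 and lin-3 exceeded the SDs of both genes. Here 48.9% of probe sets differed between fractions, 22.7% higher and 26.1% lower in polysomes. Of the 7 genes, lin-1 (log2 difference 1.06 ± 0.19, adjusted p = 0.0023) and ksr-2 (0.80 ± 0.20, adjusted p = 0.0104) were higher in polysomes and sem-5 was lower (-0.55 ± 0.18, adjusted p = 0.0361). The dimmer lin-1 probe set also passed (0.54 ± 0.17, adjusted p = 0.027), while the dimmer ksr-2 probe set did not (0.45 ± 0.20, adjusted p = 0.0923). The ksr-2 and sem-5 calls were lost without ife-1 culture 1 (adjusted p = 0.0691 and 0.115) or ife-1 culture 3 (0.0646 and 0.206), while lin-1 kept its call when any single culture was left out. Without wild-type culture 2, which changes the shared estimate of spread, lin-45 passed as well (0.43, adjusted p = 0.0319), and without wild-type culture 1, mpk-1 did (0.47, adjusted p = 0.0326).

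The main question of the study was whether polysome association differed between ife-1 and wild type. For the 7 genes no difference passed the test: with limma on log2 P/NP, 0 of 7 were called (adjusted p from 0.204 to 0.947), against 0.128% of all probe sets. At an unadjusted p under 0.05 there was 1 of 7, lin-1, beside 20.5% of all probe sets. The same fit on the linear share also called 0. The median change of the 7 genes was 0.14 on the log2 scale, beside 0.03 over all probe sets. Intervals of 95% were wide: for mpk-1, the gene nearest to no change at 0.04, the interval ran from -0.56 to 0.64. With 3 cultures per genotype, mpk-1 changes of any size within these bounds remain possible. The interval is not a limit of detection.

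lin-1 showed the largest change among the 7. Its log2 P/NP was 0.01, 0.58 and 0.57 in the wild-type cultures of sets 1, 2 and 3 and 1.23, 0.64 and 1.31 in the ife-1 cultures. All ife-1 cultures lay above all wild-type cultures, as they did for 14.8% of probe sets, with the cultures of set 2 the closest to each other. The change was 0.67 ± 0.26 (95% interval 0.07 to 1.28, adjusted p = 0.204). The second lin-1 probe set, whose genotypes overlapped, gave 0.08 ± 0.24, so the larger change was seen by 1 of the 2 probe sets. Both lin-1 probe sets carry the suffix _s_at, which marks probes shared with other transcripts, as do the dimmer ones of ksr-2, lin-45 and mpk-1. The brightest ksr-2 probe set carries another suffix, _x_at, which marks probes that may also bind unrelated sequences.

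The remaining brightest probe sets moved less, with changes of 0.26 ± 0.26 for lin-45, 0.23 ± 0.21 for let-60 and 0.14 ± 0.28 for ksr-2. For sem-5 the change was -0.06 ± 0.26 and for lin-3 -0.07 ± 0.27. Their genotypes overlapped in every case. Direction was not settled for most of them, since the dimmer probe sets of let-60, lin-45, ksr-2 and mpk-1 gave changes below 0, at -1.14, -0.30, -0.09 and -0.19.

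The Ras gene let-60 was the one whose probe sets disagreed most. The brightest gave deposited polysomal signals of 1850, 2041 and 1547 in wild type, against 2014, 2044 and 2541 in ife-1, sets 1, 2 and 3 in turn. The dimmer gave 115.9, 157.7 and 253.4 in wild type, against 203.8, 117.6 and 232.7 in ife-1. Over the 12 arrays their log2 signals correlated at -0.18, against 0.43 for mpk-1, 0.77 for lin-1, 0.81 for lin-45 and 0.95 for ksr-2. By the dimmer probe set, the polysomal share of let-60 was 79.8%, 70.5% and 65.7% in wild type, against 47.4%, 65.8% and 49.4% in ife-1. Its change in association, -1.14 ± 0.37, was the largest of the 12 probe sets but missed the threshold (95% interval -1.98 to -0.30, adjusted p = 0.146). That probe set was called present on 1 of 3 wild-type and 2 of 3 ife-1 nonpolysomal arrays, so on the other nonpolysomal arrays it was not detected.

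**Figure D2:**
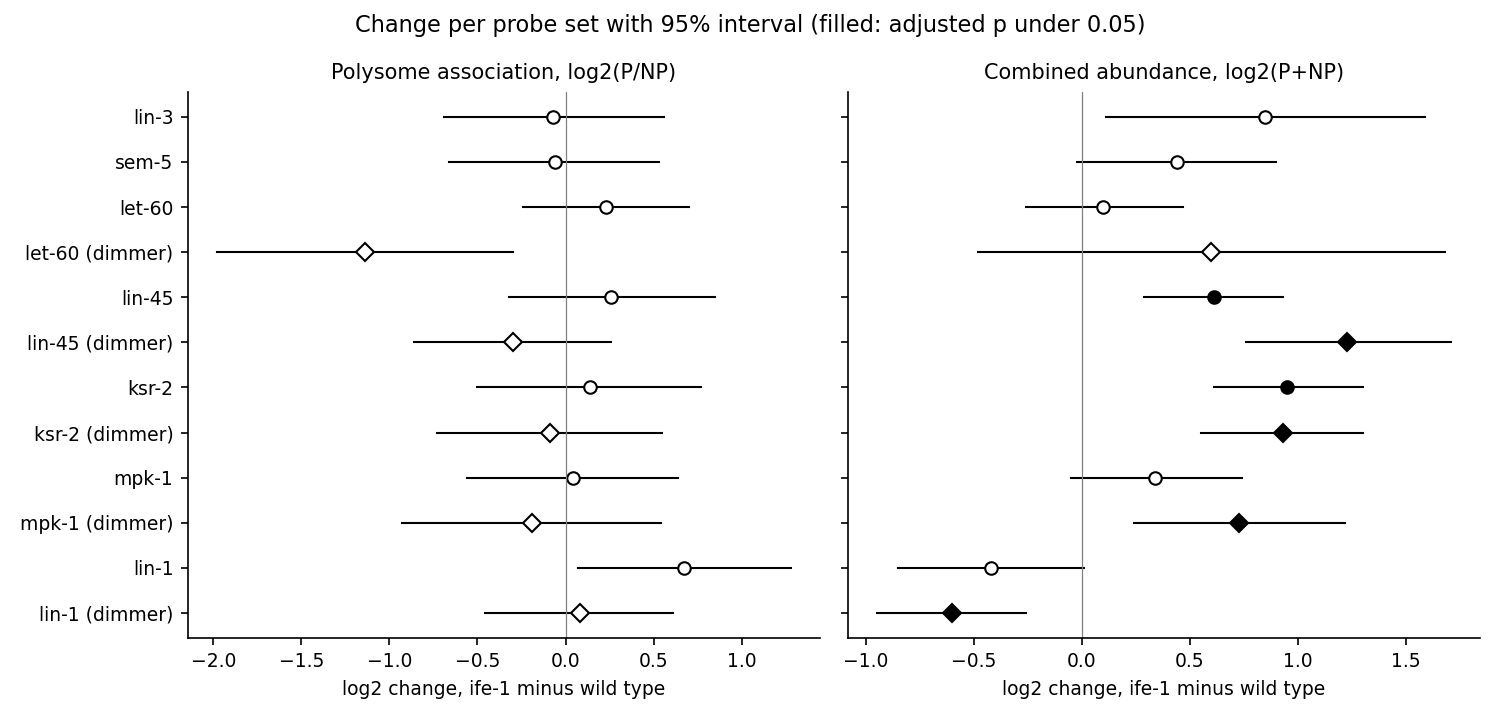
Log2 change, ife-1 minus wild type, of all 12 probe sets in polysome association (left) and combined abundance (right), with 95% intervals from limma. Circles are the brightest and diamonds the dimmer probe set of a gene, and filled symbols have an adjusted p under 0.05. No symbol is filled on the left, and on the right ksr-2 and lin-45 are filled above 0 for both of their probe sets.

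Combined abundance, log2(P+NP) of normalized signals, asked whether the mRNA level itself differed. The Raf gene lin-45 and the gene of its scaffold, ksr-2, rose in ife-1, and both did so by each of their probe sets. No other brightest probe set was called, which makes 2 of 7 genes higher and 0 lower. Of all probe sets 39.6% were called, 21% higher and 18.5% lower, so the count of 2 in 7 is no result about these genes as a group. The median change of the 7 genes was 0.44, beside 0.06 over all probe sets. In bulk RNA of whole worms, fewer cells of a type and less RNA per cell cannot be told apart.

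For ksr-2, deposited polysomal signals were 317.2, 311.2 and 231.7 in wild type, against 553.6, 520.8 and 623.7 in ife-1, sets 1, 2 and 3 in turn. Nonpolysomal signals were 159.4, 161.0 and 197.6 in wild type, against 216.4, 336.8 and 267.9 in ife-1. Every ife-1 culture was above every wild-type culture in both fractions and in combined abundance. In combined abundance 29.5% of all probe sets did the same, and within a fraction the share was not counted. Combined abundance was 1.93-fold higher, a log2 change of 0.95 ± 0.15 (95% interval 0.61 to 1.30, adjusted p = 0.00326), and 0.93 ± 0.16 by the dimmer probe set (adjusted p = 0.00456). The call held without any single culture, with adjusted p of at most 0.021, but was lost without both cultures of set 1 (adjusted p = 0.0575) or set 3 (0.0505).

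For lin-45, polysomal signals were 670.8, 877.0 and 802.3 in wild type, against 1384, 1409 and 1343 in ife-1. Nonpolysomal signals were 746.3, 532.0 and 745.2 in wild type, against 1004, 983.2 and 1166 in ife-1. Here too the genotypes did not overlap in either fraction or in combined abundance. The 29.5% of probe sets given above is for combined abundance, not for a fraction. Combined abundance was 1.52-fold higher, a log2 change of 0.61 ± 0.14 (95% interval 0.29 to 0.93, adjusted p = 0.0125). The value barely moved when single cultures were left out, but the call was lost without ife-1 culture 1 (0.62, adjusted p = 0.0526) or ife-1 culture 3 (0.59, adjusted p = 0.0546).

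The dimmer lin-45 probe set gave a larger change, 1.23 ± 0.21 (adjusted p = 0.004). It was called present on all arrays of 3 groups and on none of the 3 wild-type nonpolysomal arrays, so its change there is a bound. By the normalized log2 means, 7.78 in ife-1 and 6.38 in wild type, nonpolysomal signal was at least 2.65-fold higher in ife-1 (adjusted p = 0.00628). The brightest lin-45 probe set, called present on every array, gave 0.47 ± 0.21 in nonpolysomal RNA, 1.39-fold, and was not called (adjusted p = 0.124). Combined abundance was at least 2.35-fold higher by the means of the dimmer probe set. The bound covers the missing detection alone, not the spread between cultures. With that spread, the 95% intervals of the log2 changes began lower, at 0.91 in nonpolysomal RNA and 0.76 in combined abundance. The bound compares the ife-1 mean with the higher, array by array, of the probe set's own wild-type signal and the lowest signal of probe sets called present on all 3 arrays. That lowest signal left the wild-type mean at 6.38, so the bound equals the measured change and is no firmer than it.

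**Figure D3:**
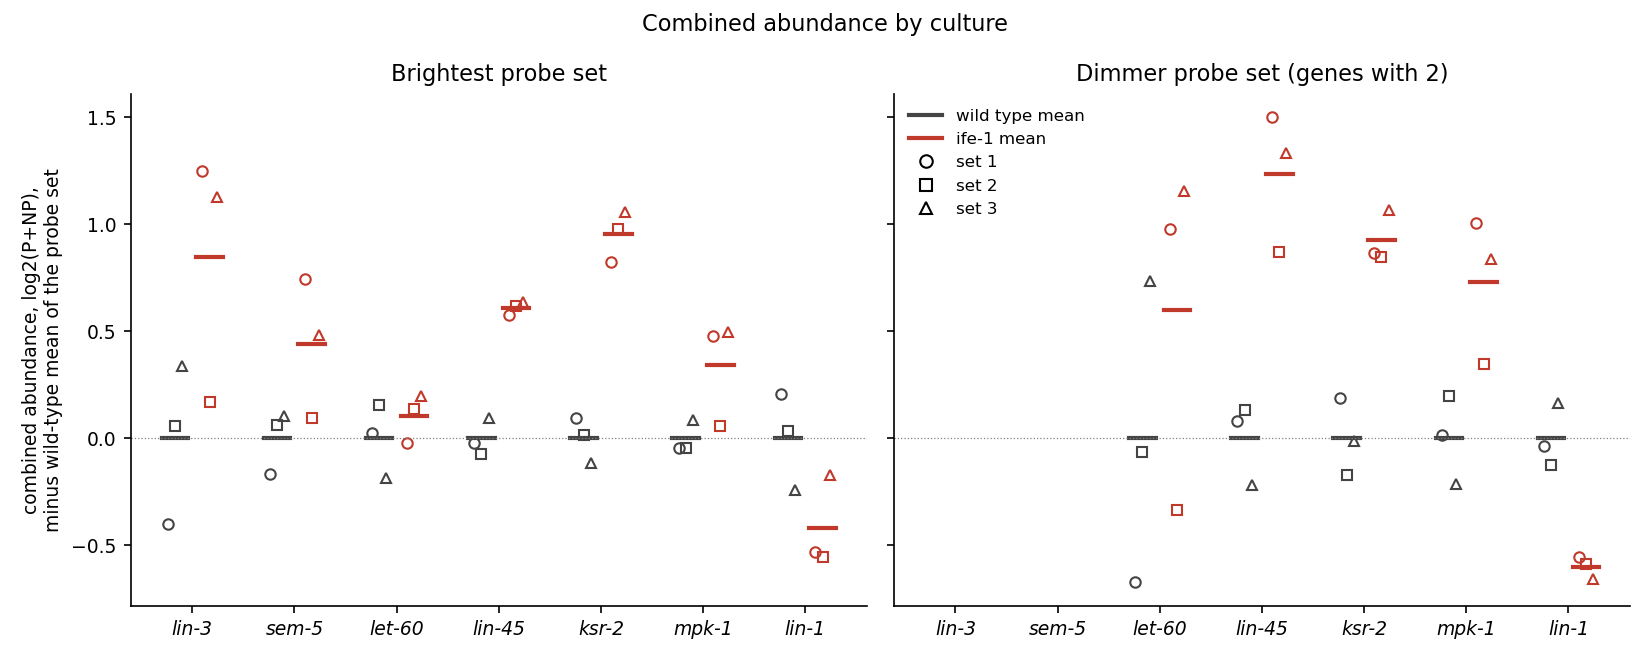
Combined abundance, log2(P+NP), of every culture minus the wild-type mean of the same probe set, for the brightest probe sets (left) and the dimmer ones (right). Grey symbols are wild-type and red symbols ife-1 cultures, the symbol shape gives the growth set and bars are means of 3 cultures. ife-1 culture 2 is the lowest of the 3 ife-1 cultures for lin-3, sem-5 and mpk-1 by their brightest probe sets, while for ksr-2 and lin-45 all ife-1 cultures lie above all wild-type ones.

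The EGF gene lin-3 and the adaptor gene sem-5 leaned the same way without passing. For lin-3, log2(P+NP) was 7.76, 8.22 and 8.50 in wild type, against 9.41, 8.33 and 9.29 in ife-1. ife-1 culture 2 lay among the wild-type values, and the change was 0.85 ± 0.32 (adjusted p = 0.068). lin-3 was also faint, with a present call on 1 of 3 wild-type nonpolysomal arrays. For sem-5 the values were 8.57, 8.80 and 8.84 in wild type, against 9.48, 8.83 and 9.22 in ife-1, a change of 0.44 ± 0.20 (adjusted p = 0.114). Its ife-1 culture 2 again lay among the wild-type cultures.

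mpk-1, the ERK gene, had log2(P+NP) of 11.03, 11.03 and 11.16 in wild type, against 11.55, 11.13 and 11.57 in ife-1. The change was 0.34 ± 0.17 (adjusted p = 0.146). The dimmer mpk-1 probe set gave 0.73 ± 0.21 and passed (adjusted p = 0.0282). All its ife-1 cultures lay above all wild-type cultures, as for 29.5% of probe sets. let-60 showed the smallest change of the 7 genes, 0.10 ± 0.16 with a 95% interval of -0.26 to 0.47 (adjusted p = 0.625), and its dimmer probe set gave 0.60 ± 0.47 (adjusted p = 0.334).

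lin-1 was the 1 gene of the 7 with a value below 0. Its log2(P+NP) was 11.63, 11.46 and 11.18 in wild type, against 10.89, 10.87 and 11.25 in ife-1, where culture 3 overlapped the wild-type cultures. The change was -0.42 ± 0.18 (adjusted p = 0.106). By its dimmer probe set lin-1 fell, with values of 10.43, 10.34 and 10.63 in wild type, against 9.91, 9.88 and 9.81 in ife-1, a change of -0.60 ± 0.15 (adjusted p = 0.0162). All ife-1 cultures lay below all wild-type cultures by that probe set, as for 24.1% of probe sets. Over the 12 probe sets together, 5 were called higher and 1 lower.

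The count changed when any ife-1 culture was left out. Without ife-1 culture 2, 5 of 7 genes were called higher: lin-3 (1.19, adjusted p = 0.0139), sem-5 (0.61, 0.035), mpk-1 (0.49, 0.0423), lin-45 and ksr-2. Of all probe sets, 20.1% were called higher in that fit, beside 21% with all cultures. Without ife-1 culture 1, or without ife-1 culture 3, 1 gene was called, ksr-2, where 8.69% and 10.2% of all probe sets were called higher. Leaving out any single wild-type culture, culture 2 included, left 2 calls, lin-45 and ksr-2, with 13.5%, 22.5% and 18.4% of all probe sets called higher without cultures 1, 2 and 3.

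A comparison of the genotypes within each fraction asked which RNA pool held these differences. In polysomal RNA, 3 of 7 genes were higher in ife-1 and 0 lower, where 34.9% of probe sets were called, 18.9% higher and 16% lower. ksr-2 rose by 1.01 ± 0.20 (adjusted p = 0.00881), lin-45 by 0.74 ± 0.17 (0.0157) and lin-3 by 0.82 ± 0.26 (0.0448). The dimmer probe sets of ksr-2 (0.88, adjusted p = 0.0172), lin-45 (1.10, 0.0148) and mpk-1 (0.65, 0.0328) passed too, which makes 6 of 12 probe sets. Polysomal lin-3 signals were 132.2, 131.5 and 175.2 in wild type, against 300.2, 169.5 and 289.9 in ife-1. The genotypes did not overlap after normalization, a separation that was not counted over all probe sets. The lin-3 call was lost when any single culture other than ife-1 culture 2 was left out (adjusted p from 0.0556 to 0.157). The lin-45 call was lost without wild-type culture 1 (0.0556) or ife-1 culture 1 (0.0665) or 3 (0.0556).

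In nonpolysomal RNA, 27.2% of probe sets were called, 14.1% higher and 13.2% lower. ksr-2 was higher in ife-1 (0.87 ± 0.20, adjusted p = 0.0217, and 0.97 ± 0.21 by the dimmer probe set, adjusted p = 0.018) and lin-1 was lower (-0.84 ± 0.24, adjusted p = 0.0401). Nonpolysomal lin-1 signals were 1487, 1034 and 876.7 in wild type, against 570.1, 738.1 and 719.3 in ife-1. All 3 ife-1 cultures were below all wild-type cultures, which was not counted over all probe sets within this fraction. The dimmer lin-1 probe set also fell (-0.65 ± 0.18, adjusted p = 0.0341). In polysomal RNA the lin-1 change was -0.17 ± 0.21 (adjusted p = 0.552), or -0.57 ± 0.19 by the dimmer probe set (adjusted p = 0.052), and the difference between the fractions is the association change above, which did not pass.

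The nonpolysomal lin-1 call was lost with the growth set as a replicate block (adjusted p = 0.0759), without wild-type culture 1 (0.103) and without ife-1 culture 1, 2 or 3 (0.146, 0.0589 and 0.105). The ksr-2 call in nonpolysomal RNA was lost without wild-type culture 1 (0.0634) or ife-1 culture 1 (0.0518) or 3 (0.0784).

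Markers of worm tissues moved with the abundance results, in which 21% of all probe sets were called higher and 18.5% lower. All 10 germline and oocyte markers rose in ife-1, and their summed signal was 41041 to 47422 in wild type, against 74297 to 89609 in ife-1, lowest in set 2 within both genotypes. All 5 yolk protein genes rose, with sums of 115606 to 131033 in wild type, against 184937 to 194456 in ife-1. Of 7 vulval and epidermal markers 4 fell and 0 rose, with sums of 8339 to 9356 and of 4047 to 5240. Of 6 muscle markers 4 fell, with sums of 35169 to 39205 and of 27395 to 32270. Of 5 neuronal markers 2 fell, and of 6 intestinal markers 1 rose and 2 fell. Of 8 sperm markers limma called 0 with all cultures, and 1 had an unadjusted p under 0.05, beside 49.8% of all probe sets. Their sums were 75695, 18141 and 72202 in wild type, against 21049 to 26287 in ife-1. The 0 calls include the low wild-type culture 2 and do not show equal sperm content. Sperm markers were not read without that culture. No measured marker was without a present call, but the probe sets had been kept by such calls. The part of tissue makeup in the changes of ksr-2, lin-45, lin-3 and lin-1 was not tested.

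The wider pathway was read from a list of 39 further regulators and effectors, 31 of them measured. In association limma called 0 of 31, and 6 had an unadjusted p under 0.05, near the 20.5% of all probe sets. In combined abundance 10 rose and 3 fell, where 21% of all probe sets were called higher and 18.5% lower. The 10 include the 5 germline genes given below. The median change was 0.25, beside 0.06 over all probe sets. Among regulators of the ligand and receptor, rom-1, a rhomboid protease gene, rose by 1.03 ± 0.24 (adjusted p = 0.0134). lin-2, whose protein holds LET-23 at the basolateral membrane of vulval precursors, showed the largest change downward, -1.24 ± 0.29 (adjusted p = 0.0125).

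At the level of Ras and Raf, rap-1, encoding a Ras-related GTPase, rose by 0.71 ± 0.23 (adjusted p = 0.0429). soc-2, encoding a leucine-rich repeat scaffold of Ras and Raf, fell, with a change of -0.61 ± 0.15 (adjusted p = 0.0164). Of 9 measured genes of the Raf, scaffold and phosphatase list, which holds lin-45 and ksr-2, 4 rose and 1 fell. Among nuclear effectors the forkhead factor gene lin-31, which is also a vulval marker, fell, with a change of -0.73 ± 0.23 (adjusted p = 0.0374).

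Of the germline genes tied to MPK-1, 5 of 5 measured were called higher in ife-1, beside 21% of all probe sets, with a median of 0.70. The list was chosen with earlier results of these data known, so this count is no independent support. They were gla-3, a zinc finger protein gene (1.25 ± 0.28, adjusted p = 0.0111), the Nanos family gene nos-3 (1.14 ± 0.14, adjusted p = 0.00153), the RNA-binding protein genes daz-1 (0.70) and puf-8 (0.65), and the kinase gene rskn-1 (0.51). Germline markers rose as given above, and their part in this result was not tested. As a contrast, the stress MAPK cascades were read from 15 genes, 14 of them measured. In association limma called 0 of the 14, and 3 had an unadjusted p under 0.05, again near the 20.5% of all probe sets. In abundance 1 of the 14 rose and 1 fell, where 39.6% of all probe sets were called. The MAPK kinase gene mek-1 rose by 1.27 ± 0.17 (adjusted p = 0.00184) and the JNK gene jnk-1 changed by -1.01 ± 0.25 (adjusted p = 0.0168). Their median was -0.11, and the difference between the lists was not tested.

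**Figure D4:**
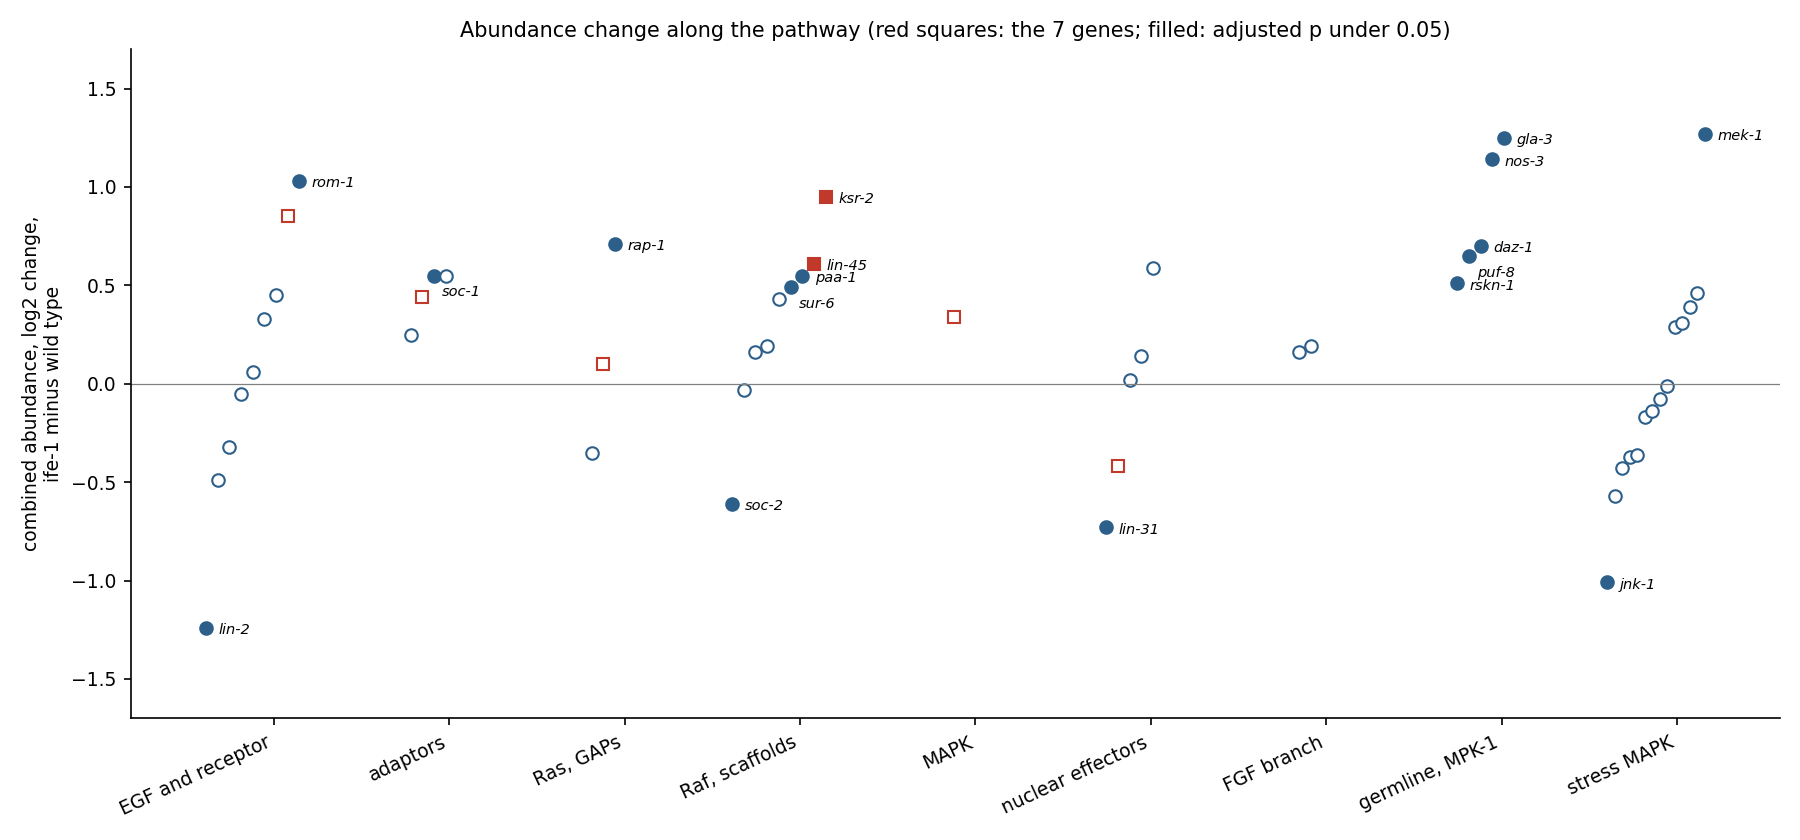
Log2 change in combined abundance, ife-1 minus wild type, of each measured gene of the pathway lists and of the stress MAPK list, 1 brightest probe set per gene, grouped by role along the horizontal axis and sorted by value within a group. Red squares are the 7 genes of the cascade, filled symbols have an adjusted p under 0.05 and carry their names. All 5 genes of the germline list are filled and above 0, and the lists were chosen with earlier results of these data known.

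In wild-type polysomes against nonpolysomal RNA, 6 of the 31 wider pathway genes were higher and 7 lower, where 26.5% of all probe sets were higher and 29.3% lower. The highest were dep-1, a receptor tyrosine phosphatase gene (1.04 ± 0.13, adjusted p = 0.000386), the 14-3-3 protein gene par-5 (1.04 ± 0.15, adjusted p = 0.000562) and paa-1, a structural subunit of protein phosphatase PP2A (0.95 ± 0.16, adjusted p = 0.00137). The lowest were puf-8, with a polysomal share of 21.2% ± 3.02 (SD, n = 3), daz-1 with 28.2% ± 3.79, and the zinc finger factor gene eor-1 with 36.0% ± 4.17. The 7 core genes, at 41.7% to 61.1%, lay inside the range that these regulators span.

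The authors' deposited table gives folds of wild type over ife-1 as means of single growth sets. For summed signal that fold was 0.55 for ksr-2, 0.60 for lin-45, 0.66 for lin-3 and 1.28 for lin-1 in the authors' deposited table. The corresponding folds of the polysomal share lay between 0.856, for lin-1, and 1.02, for sem-5 and mpk-1, over the 7 brightest probe sets of the authors' deposited table, and at 1.27 for the dimmer let-60 probe set.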

How the data were processed

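Affymetrix arrays of polysomal and nonpolysomal RNA were analysed for 2 genotypes with 3 cultures each. The values are scanner intensities, linear signals that the authors deposited as taken from the Affymetrix files; their scaling software is not given in sources used here. The authors kept 13372 of 22626 probe sets by detection calls, and 39 controls were left out here. Present and absent calls in the deposited workbook count arrays per group, since they carry no growth set. The ratio folds of the authors' deposited table are wild type over ife-1. Another 36 per-sample columns of that workbook were not used.

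Signals below 1 (5 values) were set to 1, and log2 signals were quantile-normalized over 12 arrays, so each value is relative to its array's overall signal, and P+NP weights both fractions alike whatever their yield. Genes were named by the platform annotation, which gave a single gene to 12616 probe sets (12595 matched RefSeq), several genes to 459 and no gene to 258. Tests used limma 3.58.1 under R 4.3.3 (lmFit and untrended eBayes). P-values were adjusted by Benjamini-Hochberg across 13333 probe sets, and 0.05 was the threshold. The scripts ran in Python 3.11.15 with pandas 2.3.3 and matplotlib 3.10.9 and were tested on simulated arrays.

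The deposited outline states that wild-type and ife-1 samples were paired in growth sets, and this pairing is by set number. Same-numbered cultures deviated from their genotype means with correlations of -0.032, -0.0627 and 0.0234 in association and -0.113, -0.0532 and 0.13 in abundance. The tests leave the block out, and the fit with it is an alternative.

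The genes, lists and rule for named genes were chosen with earlier results of these data known. Named were the cascade genes; from the wider lists, any gene called in association, the 4 largest called abundance changes and the 3 largest wild-type fraction differences per direction, the 2 largest called changes of the stress list; and the 2 genes most like each cascade gene. rskn-1, daz-1 and puf-8 were named in abundance after their values were seen. Alternatives were 4 other scalings, an offset of 50, brighter probe sets only, a variance trend, the block, means over probe sets, other outcome scales, unpaired fractions and leaving out sets or cultures; reading the dimmer probe set alone was added after the data were seen.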

Additional observations from a re-analysis of the deposited data

How the results depend on the processing

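Association had 0 of 7 genes called under every alternative run. With the replicate block for paired growth sets, 2 genes stayed called in abundance, 2 were called in the wild-type fractions (1 without it, sem-5 added) and 1 in nonpolysomal RNA (2 without it, lin-1 lost); no other call of the 7 genes changed. The count in abundance, 2, became 1 with brighter probe sets alone, where 4 genes remained testable, 4 with means over a gene's probe sets, and 0 to 5 when a set or culture was left out. The wild-type fraction count, 1, became 2 with signals as deposited, 4 with scaling on bacterial controls, 3 with an offset of 50, 2 with a variance trend, 3 with means over probe sets, and 0 to 1 with cultures left out. The ife-1 fraction count, 3, became 5 with the offset, and 1 to 4 with cultures left out. The polysomal count, 3, became 1 with brighter probe sets, and 0 to 3 with cultures left out. The polysomal call of lin-3 was lost in 10 of 16 alternatives, some of which kept all cultures, so the count also fell in settings not named here. The nonpolysomal count, 2, became 0 with signals as deposited, 1 with median scaling, 4 with bacterial controls, 1 with brighter probe sets, and 0 to 2 with cultures left out; the cause was not tested. Scaling on bacterial controls moved the median of all probe sets to -0.47 in association, 0.27 in abundance, 0.55 in the wild-type fractions and 0.54 in nonpolysomal RNA. Values that changed sign were all uncalled as reported. In association, bacterial controls gave -0.43 for let-60, -0.40 for lin-45, -0.65 for mpk-1 and -0.23 for ksr-2; means over probe sets gave -0.46 for let-60, -0.02 for lin-45 and -0.08 for mpk-1; the dimmer probe sets gave -1.14 for let-60, -0.30 for lin-45, -0.19 for mpk-1 and -0.09 for ksr-2. Signals as deposited gave 0.06 for lin-3 and -0.08 for mpk-1, median scaling -0.14 for mpk-1, and the authors' deposited table, turned to log2 of ife-1 over wild type, 0.01 for lin-3 and -0.03 for mpk-1. With cultures left out, association ran from -0.34 to 0.31 for lin-3, -0.28 to 0.09 for sem-5, -0.21 to 0.22 for mpk-1 and -0.19 to 0.40 for ksr-2, abundance of let-60 from -0.04 to 0.18, the wild-type fraction difference of lin-45 from -0.06 to 0.37, polysomal lin-1 from -0.41 to 0.03 and nonpolysomal let-60 from -0.11 to 0.06. In the wild-type fractions, bacterial controls gave 0.42 for lin-3, 0.23 for sem-5 and 0.55 for let-60, means over probe sets 0.68 for let-60, and the dimmer probe sets 1.39 for let-60 and -0.09 for mpk-1. In the ife-1 fractions, median scaling gave -0.05 for let-60 and the dimmer probe set -0.28 for mpk-1. Nonpolysomal let-60 was 0.14 with signals as deposited, 0.15 with median scaling, 0.73 with bacterial controls, 0.65 with means over probe sets and 1.32 by the dimmer probe set. Low signal limits lin-3 and the dimmer probe sets of let-60, lin-45 and mpk-1, which were not called present on every wild-type nonpolysomal array.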

Other observations

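Over the 12 arrays, log2 signals of the 7 genes fell into 2 loose sets when described by Pearson's r, with no test, since the points share cultures and fractions. lin-45 and ksr-2 correlated at 0.84, lin-45 and mpk-1 at 0.76, and mpk-1 and ksr-2 at 0.70. lin-3 and sem-5 correlated at 0.80, and lin-1 ran against both, at -0.60 with lin-3 and -0.81 with sem-5. let-60 correlated at most at 0.53, with ksr-2.

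The genes of the whole table whose 12 signals were most like those of a cascade gene were metr-1 (0.957) and pgap-2 (0.946) for lin-3, and nstp-10 (0.959) and pqn-51 (0.947) for sem-5. For let-60 they were oga-1 (0.877) and T14G11.1 (0.86), and for lin-45 Y110A7A.9 (0.948) and tbc-9 (0.946). For ksr-2 they were sec-31 (0.971) and F59E12.9 (0.966), for mpk-1 scc-2 (0.941) and cyk-1 (0.934), and for lin-1 F32B5.6 (0.956) and fbxl-1 (0.943). With 10334 genes compared over 12 arrays, high values of r are common.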
